A study of Bos taurus with 18 samples.

Results

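The miR-200 family is a group of 5 microRNAs (miRNAs) known from epithelial cells. Its bovine members bta-miR-141, bta-miR-200a, bta-miR-200b, bta-miR-200c and bta-miR-429 were taken by name from the 1071 miRNAs counted in cattle plasma, a rule that uses no measured value. The family was, however, chosen with earlier results of these data known. Plasma was taken from the same 3 castrated male Japanese Black cattle (steers) at about 20, 25 and 30 months of age, during fattening. Each of the 9 plasma samples gave an exosomal (EX) RNA, from small vesicles, and a non-exosomal free circulating (FC) RNA, and each RNA gave 1 small RNA library, so that 6 groups of 3 libraries were available. No group was treated, and age, feeding stage and sampling date cannot be told apart. The number 1, 2 or 3 that ends a library name is taken as that of the steer, since the study names its plasma samples by age and individual number.

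In epithelial cells the family is known for holding down ZEB1 and ZEB2, repressors of the adhesion gene for E-cadherin, so that loss of the family goes with a shift to a mesenchymal state. A miRNA pairs with its targets mainly through its seed, the bases 2 to 8 from the 5′ end, so members with the same seed share most targets. In plasma, miRNAs shed by many tissues circulate inside vesicles or bound to protein, and a library of plasma RNA cannot tell fewer shedding cells of a type from less RNA shed per cell.

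The 5 mature sequences, as the deposited count table lists them, are shown because the family falls into 2 seed classes; capitals mark the seed.
bta-miR-141: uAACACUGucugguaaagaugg
bta-miR-200a: uAACACUGucugguaacgauguu
bta-miR-200b: uAAUACUGccugguaaugaug
bta-miR-200c: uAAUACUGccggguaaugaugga
bta-miR-429: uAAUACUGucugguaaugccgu

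The seed AACACUG was shared by bta-miR-141 and bta-miR-200a, and AAUACUG by bta-miR-200b, bta-miR-200c and bta-miR-429. Counted from the 5′ end and written with the base of bta-miR-200a first, the seeds differed by C4U alone. No other listed miRNA carried either seed. Over the bases they have in common, bta-miR-200b differed from bta-miR-200c only by U11G, and bta-miR-200a from bta-miR-141 by C17A and U22G. In the order of genes on the ARS-UCD2.0 assembly, as the RefSeq gene table gives it, MIR141 stood next to MIR200C, and MIR429, MIR200A and MIR200B followed each other, so each of these 2 loci holds both seeds. Genome positions are not given here, since the study's reads were mapped to another build.

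Library totals ranged from 991354 to 2778618 miRNA counts in EX and from 3615234 to 12088735 in FC, and were lowest at 30 months in FC. The members were well counted, with 439.5 to 11709 counts per library in EX and 2271 to 52152 in FC. Counts were not all whole because reads that matched several miRNAs had been divided. Of the 90 member values 48 were not whole (tolerance 0.02 counts), but the sum of the 5 members was whole in 18 of 18 libraries. The sum of bta-miR-141 and bta-miR-200a was whole in 13 of 18. The division between close relatives such as bta-miR-200b and bta-miR-200c is therefore less certain than the sum of the family. All 5 members passed the filter of more than 5 counts per 1000000 (CPM) in 3 or more of a fraction's 9 libraries, as did 345 miRNAs in EX and 358 in FC.

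The family made up 0.33% to 1.56% of all miRNA counts in EX and 0.325% to 1.90% in FC. bta-miR-141 was the most abundant member in each fraction, with 4717 ± 2113 CPM in EX and 5593 ± 3180 CPM in FC (SD, n = 9). That placed it at rank 42 of the 345 miRNAs in EX and rank 39 of the 358 in FC. bta-miR-200a followed with 1767 ± 987 CPM in EX and 1613 ± 836 CPM in FC. The 3 members with the seed AAUACUG lay lower and close together. Their 9-library means were between 469 and 625 CPM in EX and between 498 and 624 CPM in FC, and their ranges over the 9 libraries overlapped. All lengths were 21 to 23 bases, so CPM values compare read numbers between members without a length term.

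**Figure D1:**
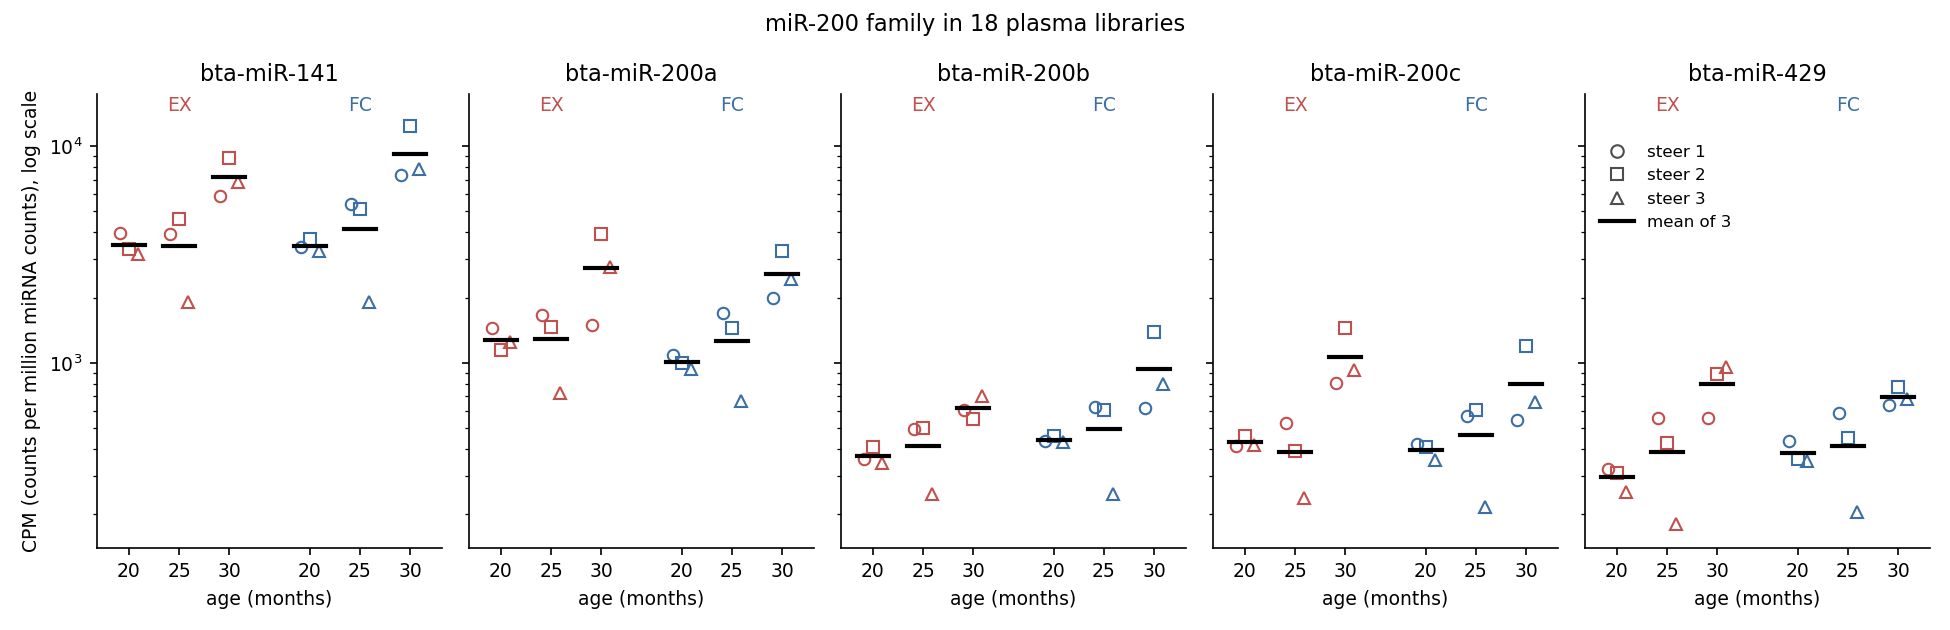
CPM of each member (log scale) in every library by age, with EX in red and FC in blue; symbols mark the 3 steers and bars the mean of 3. In each fraction the 30 months libraries lay above the 20 months libraries for all 5 members, and steer 3 at 25 months (triangles) was the lowest point of each series.

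In FC bta-miR-141 and bta-miR-200a rose from 20 to 30 months of age. bta-miR-141 was measured at 3416, 3717 and 3296 CPM at 20 months in steers 1, 2 and 3. At 25 months it was at 5398, 5106 and 1910.0 CPM, and at 30 months at 7340.1, 12345 and 7807 CPM. The 30 months values lay above all earlier ones, with steer 2 highest. The log2 fold change from 20 to 30 months was 1.38 ± 0.27 (SE; edgeR's quasi-likelihood test with the steer as a block, false discovery rate (FDR) = 0.027), about 2.59-fold. From 25 to 30 months it was 1.11 ± 0.27 (edgeR, FDR = 0.0275).

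bta-miR-200a, which shares the seed of bta-miR-141 but comes from the other locus, was at 1089, 995 and 940.4 CPM in FC at 20 months. The 25 months libraries had 1690.3, 1442 and 667 CPM and the 30 months libraries 1999, 3268 and 2428 CPM, again with no overlap between 30 months and the earlier ages. Its log2 fold change was 1.35 ± 0.26 from 20 to 30 months (edgeR, FDR = 0.027). From 25 to 30 months it was 0.97 ± 0.26 (edgeR, FDR = 0.0353), past the FDR threshold of 0.05 but short of the log2 fold change of 1 that a call also needed.

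The FC values of the members with the seed AAUACUG pointed the same way but missed the FDR threshold in edgeR's quasi-likelihood test. bta-miR-200b, from the locus of bta-miR-200a, was at 438, 458 and 432 CPM when 20 months old, then at 628, 606 and 249 CPM, and at the last age at 616, 1394 and 797 CPM. Steer 1 thus differed little between 25 and 30 months, while steer 2 stood well above the rest at 30 months. bta-miR-200c, from the locus of bta-miR-141, was at 422, 409 and 357 CPM, then 569, 608 and 216, then 547, 1198 and 661. It stayed close to bta-miR-200b in every FC library. bta-miR-429 was at 436, 362 and 351 CPM, then 589.8, 449.7 and 205, then 637, 775 and 681, and so varied less between steers at 30 months. Their log2 fold changes from 20 to 30 months were 1.03 ± 0.29 for bta-miR-200b, 0.97 ± 0.28 for bta-miR-200c and 0.89 ± 0.26 for bta-miR-429 (SE), with edgeR FDR of 0.0684, 0.0713 and 0.0713. From 25 to 30 months they were 0.83 ± 0.29, 0.73 ± 0.28 and 0.75 ± 0.26 (edgeR, FDR = 0.0743, 0.0950 and 0.0739). In DESeq2 all 3 passed from 20 to 30 months (FDR = 0.012, 0.0153 and 0.0182), and from 25 to 30 months bta-miR-200b and bta-miR-429 did (FDR = 0.0318 and 0.0332) and bta-miR-200c did not (FDR = 0.0513).

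Counted over the family, 2 of 5 members rose in FC from 20 to 30 months, where 2.79% of the 358 tested miRNAs were called higher, and 1 of 5 from 25 to 30 months, where 5.59% were. By FDR alone 2 of 5 passed from 25 to 30 months, against 6.98% of all. DESeq2 called 3 of 5 members from 20 months (4.47% of all higher) and 1 of 5 from 25 months (7.54%), and by FDR alone 5 of 5 (7.54%) and 4 of 5 (12.6%). At an unadjusted p under 0.05 all 5 were higher in each comparison, against 11.7% of miRNAs from 20 to 30 months and 14.2% from 25 to 30 months. The 3 libraries of 30 months lay above the 3 of 20 months for 5 of 5 members in CPM, against 14.8% of miRNAs, and also for 5 of 5 after TMM (trimmed mean of M-values) normalization, against 15.4%. The share of all miRNAs that lay above both earlier ages was not counted. The members' median log2 fold change was 1.03 from 20 to 30 months and 0.83 from 25 to 30 months, while the median over all tested miRNAs was -0.12 and -0.20. These calls rested on few animals. Without any 1 of steers 1, 2 and 3, no member was called in FC, from 20 or from 25 months, although the log2 fold changes of bta-miR-141 from 20 months stayed at 1.39, 1.26 and 1.40 (edgeR, FDR = 0.109, 0.150 and 0.0598). With the counts as deposited no member was called in FC either, with log2 fold changes from 20 to 30 months of 1.34 for bta-miR-141 and 1.32 for bta-miR-200a (edgeR, FDR = 0.0658 for each). In 4 FC libraries, those of 30 months and that of steer 3 at 25 months, 77 to 101 rows of the deposited count and CPM tables disagree, none of them a member's. The counts used here were recomputed from CPM, and which table is right is not known. With the counts as deposited, calls over all FC miRNAs from 20 to 30 months fell from 25 to 2. With only the libraries of 25 and 30 months the call of bta-miR-141 was lost as well (log2 fold change 1.14, edgeR, FDR = 0.0809).

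In EX no member passed the FDR threshold in edgeR's quasi-likelihood test, although the CPM of all 5 at 30 months lay above that at 20 months. bta-miR-141 was at 3966, 3351 and 3187 CPM at the first age, 3944, 4589 and 1899.9 CPM at the second and 5889, 8779.9 and 6846 CPM at the third. bta-miR-200c was at 412, 458 and 419 CPM, then 529, 393 and 238, then 805, 1449.5 and 925. For each of these, all 3 libraries of 30 months lay above the 6 earlier ones. How many of all miRNAs did so was not counted, and 17.7% did against the 20 months libraries alone. bta-miR-429 was at 323, 311 and 255 CPM, then 554, 427 and 180.3, then 559, 891 and 955, so that steer 1 was nearly level from 25 to 30 months. bta-miR-200a was at 1448, 1141 and 1248 CPM, then 1658, 1460.4 and 729.5, then 1492, 3946 and 2780.3. Here steer 1 at 30 months lay below its own value at 25 months, while steers 2 and 3 were far above theirs. bta-miR-200b was at 359, 410.5 and 344 CPM, then 496, 501 and 249, then 605, 553 and 704, the narrowest range among the 5.

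The EX log2 fold changes from 25 to 30 months were 0.65 ± 0.23 for bta-miR-141, 0.63 ± 0.35 for bta-miR-200a, 0.18 ± 0.34 for bta-miR-200b, 1.00 ± 0.33 for bta-miR-200c and 0.69 ± 0.41 for bta-miR-429 (SE; edgeR, FDR from 0.0832 to 0.789). From 20 to 30 months they were 0.68 ± 0.23, 0.70 ± 0.34, 0.40 ± 0.34, 0.91 ± 0.33 and 1.10 ± 0.40 (edgeR, FDR from 0.0982 to 0.472). None of the 5 members was called by edgeR in either comparison, where 14.2% and 13.3% of the 345 miRNAs were called in either direction. At an unadjusted p under 0.05, 2 of 5 were higher from 25 months (7.54% of all) and 3 of 5 from 20 months (8.41% of all). DESeq2 called 1 member from 25 months, bta-miR-200c, where it called 6.96% of all miRNAs higher, and 2 from 20 months, bta-miR-200c and bta-miR-429, where it called 6.67% higher. bta-miR-141 passed the FDR threshold from 25 and from 20 months (log2 fold changes 0.74 and 0.78, DESeq2, FDR = 0.00511 and 0.00293) but not the fold threshold. Without the steer block edgeR called bta-miR-200c from 25 months (log2 fold change 1.02, FDR = 0.0494), where it called 66 of the 345 miRNAs in either direction.

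The EX result depends on how libraries were scaled. In plain CPM the 30 months libraries lay above the 20 months libraries for 5 of 5 members (17.7% of all miRNAs); after TMM normalization they did so for 3 of 5 (11.0% of all), bta-miR-141, bta-miR-200c and bta-miR-429. For bta-miR-200c the mean CPM at 30 months was 2.74-fold that at 25 months, whereas the fitted fold was 1.99. With library totals as the only scaling the median log2 fold change over all miRNAs from 25 to 30 months moved from -0.51 to -0.04, that of the members from 0.65 to 1.11, and bta-miR-141 and bta-miR-200c were called. With that scaling 42 of the 345 miRNAs were called in either direction. In each scaling the members' median lay above that of all miRNAs by more than 1 on the log2 scale. In the same libraries the white cell miRNAs bta-miR-150, bta-miR-142-5p and bta-miR-223 together took 196841 to 247063 CPM of EX libraries at the age of 20 months, 154497 to 341028 CPM at 25 and 43311 to 62964 CPM at 30. In FC they took 147082 to 180437, 138849 to 274371 and 76799 to 104414 CPM. From 25 to 30 months bta-miR-150 and bta-miR-142-5p fell in EX by edgeR and by DESeq2. In FC edgeR called bta-miR-150 lower and DESeq2 called bta-miR-142-5p as well. bta-miR-223 was not called by edgeR, with log2 fold changes of -0.23 in EX and 0.67 in FC. Of all miRNAs in EX, edgeR called 10.4% lower and DESeq2 17.7%; of those in FC, the shares were 10.1% and 14.8%. Their part in the members' result was not tested.

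**Figure D2:**
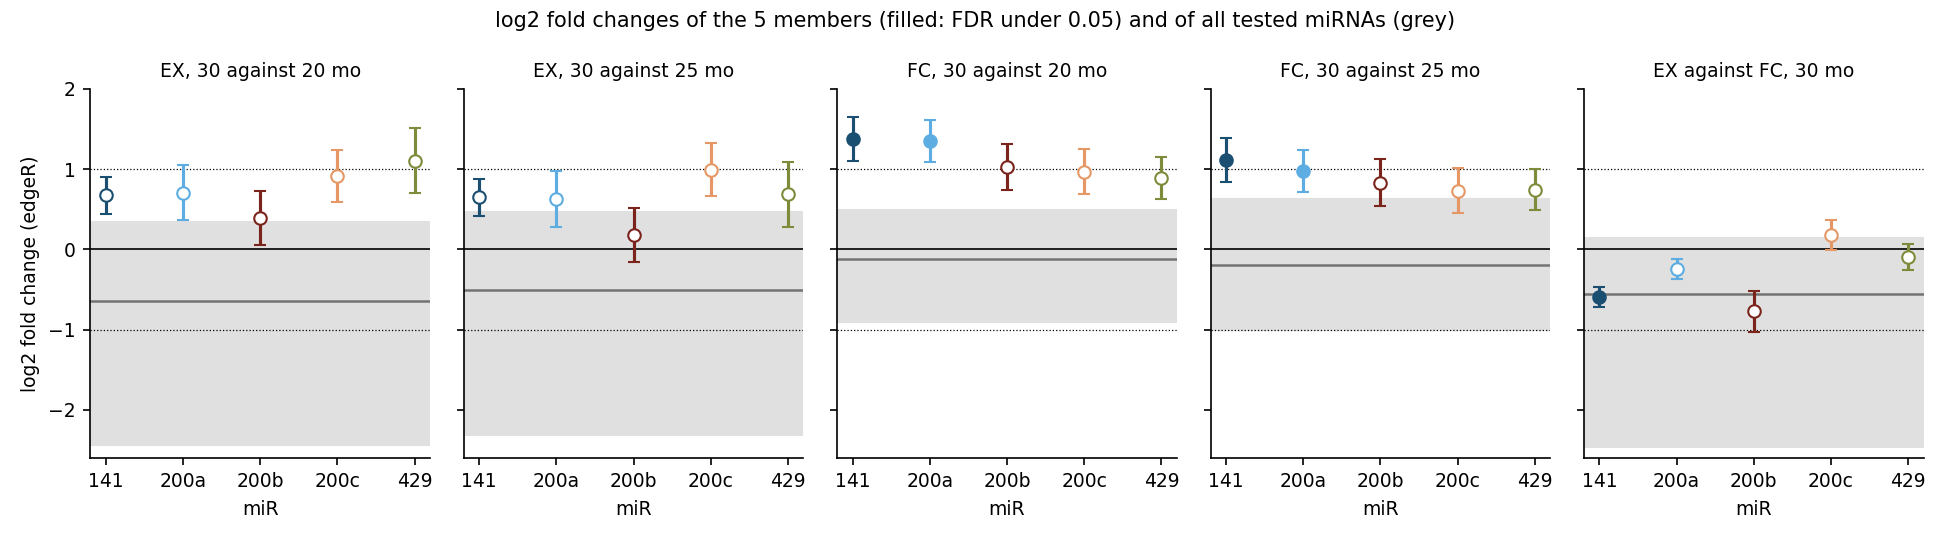
Fitted log2 fold changes of the 5 members (points, bars ± SE, edgeR; filled where FDR is under 0.05) between 30 and 20 months, between 30 and 25 months, and between EX and FC at 30 months; the grey line and band give the median and quartiles of all tested miRNAs, and dotted lines the fold threshold. In FC the members with the seed AACACUG (bta-miR-141 and bta-miR-200a) lay at 0.97 to 1.38 and those with AAUACUG at 0.73 to 1.03, all above the upper quartile of all miRNAs.

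Between 20 and 25 months no member was called in either fraction. The log2 fold changes ran from -0.08 to 0.42 in EX, where edgeR called 0.290% of all miRNAs, and from 0.14 to 0.38 in FC, where it called 0%. At an unadjusted p under 0.05, 0 of 5 members passed in EX (2.32% of all) and 0 of 5 in FC (3.63% of all). DESeq2 called no member either, and of all miRNAs it called 0.870% in EX and 0% in FC. The steers went different ways. The FC level of bta-miR-141 changed by 0.66 and 0.46 on the log2 CPM scale in steers 1 and 2 and by -0.79 in steer 3. Steer 3 at 25 months was the lowest of 9 libraries for 5 of 5 members in EX and in FC, and for 4 of 5 in each after TMM normalization. That plasma sample also had the most bta-miR-150, with 276263 CPM in EX and 194329 in FC, against 94908 to 120314 and 65415 to 74960 in the other steers at that age. In fits without this sample, tried after seeing the data, the FC log2 fold change of bta-miR-141 from 25 to 30 months was 0.88 (edgeR, FDR = 0.0679) and no member was called. From 20 to 30 months 3 members were then called, against 3.35% of all miRNAs called higher, with bta-miR-200b added (log2 fold change 1.00, FDR = 0.042). By FDR alone 5 of 5 passed, against 5.59% of all. In EX, bta-miR-200b then stood at -0.05 from 25 to 30 months.

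EX and FC of the same plasma were compared by the members' levels relative to all miRNAs of each library. Such levels do not give the amount of a miRNA that a fraction carries. At 20 months bta-miR-200a was higher in EX, and bta-miR-200b and bta-miR-429 were lower in EX, in 3 of 3 plasma samples in CPM. At 25 months bta-miR-141, bta-miR-200b and bta-miR-429 were lower in EX in 3 of 3. How many of all miRNAs went 1 way in 3 of 3 was not counted. The fitted log2 difference ran from -0.42 to 0.30 at 20 months and from -0.23 to 0.02 at 25 months. No member was called by edgeR at either age, where 2.12% of the 330 miRNAs tested in common were called at 20 months and 2.12% at 25 months. At an unadjusted p under 0.05, 2 members passed at 20 months, against 17.9% of all miRNAs, and 0 at 25 months, against 16.4%. DESeq2 called no member at either age, where it called 3.03% and 3.64% of all.

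At 30 months bta-miR-141 was lower in EX than in FC in 3 of 3 plasma samples, at 5889 against 7340.1 CPM, 8779.9 against 12345 and 6846 against 7807. The log2 difference was -0.59 ± 0.12 (SE; edgeR with the plasma sample as a block, FDR = 0.00743), under the fold threshold. It missed the FDR threshold with the steer as the block (FDR = 0.054), with no block (FDR = 0.168) and with library totals as the only scaling (-0.33, FDR = 0.0509). It lay close to the median over all miRNAs of -0.56, and 17.3% of miRNAs were lower in EX by FDR alone. bta-miR-200b was also lower in 3 of 3, at -0.77 ± 0.26 (edgeR, FDR = 0.0530). It passed the FDR threshold in DESeq2 (-0.70, FDR = 0.027, where 32.4% of all miRNAs passed as lower in EX), in the likelihood ratio test (FDR = 0.0369) and with a filter of CPM above 1 (-0.93, FDR = 0.0248). The plasma samples differed widely. Steer 2 had 553 CPM in EX against 1394 in FC, while steers 1 and 3 had 605 against 616 and 704 against 797. bta-miR-200a was at -0.25 ± 0.13, bta-miR-200c at 0.18 ± 0.18 and bta-miR-429 at -0.10 ± 0.17. By the rule with the fold threshold 0 of 5 members were called, against 13.6% of all.

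The change from 25 to 30 months was compared between the fractions directly, as the difference of the EX and FC changes within plasma samples. It ran from -0.54 for bta-miR-200b to 0.39 for bta-miR-200c, with 0 of 5 members past an FDR of 0.05 (edgeR, FDR from 0.243 to 0.944), against 6.97% of all miRNAs, and 0 at an unadjusted p under 0.05, against 21.8%. DESeq2 called none of the 5, against 17.9% of all. With a steer left out bta-miR-200c ran from -0.0087 to 0.26, and bta-miR-429, at 0.041 in the main fit, from -0.43 to 0.098. bta-miR-141, called in FC, stood at -0.37 (FDR = 0.243), beside a median of -0.32 over all miRNAs. With a filter of CPM above 1 it passed, at -0.61 (edgeR, FDR = 0.0362) beside a median of -0.58, where 9.28% of miRNAs passed. Whether the members' changes differ between the fractions thus depended on the filter for bta-miR-141 and was not shown for the other 4 members under either filter.

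**Figure D3:**
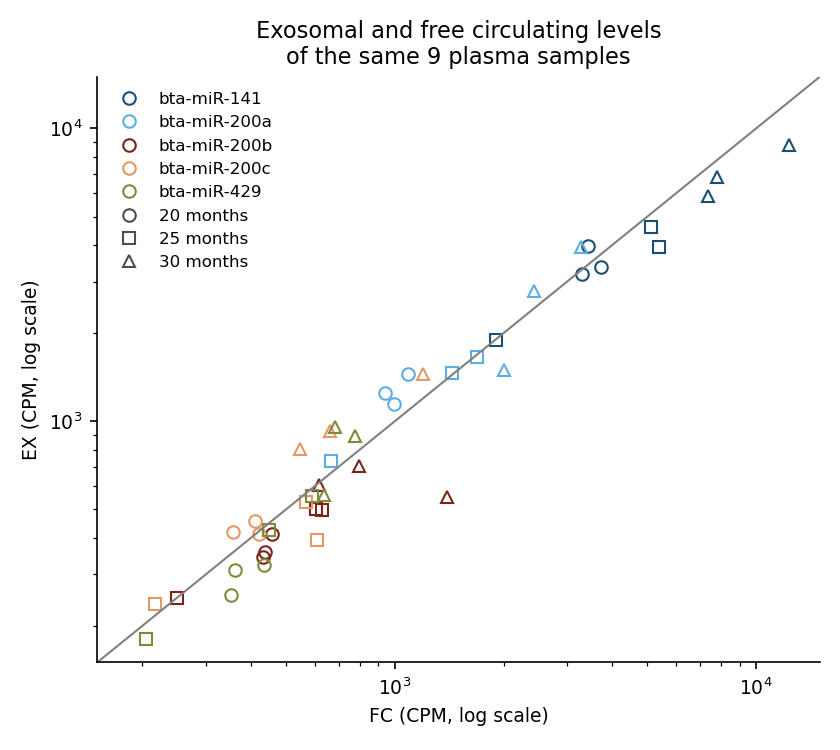
CPM in EX against CPM in FC of the same plasma sample (log scales), with 1 point per member and sample, colour for the member, symbol for the age, and a line where the CPM of EX and FC are equal. The points follow the line from 180.3 CPM to 12345 CPM, and the point farthest below it is bta-miR-200b of steer 2 at 30 months (553 against 1394 CPM).

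The make-up of the family was followed by seed class and by member. bta-miR-141 and bta-miR-200a together gave 80.3% ± 1.8 of the family's counts in EX and 80.4% ± 2.1 in FC (SD, n = 9). In EX single shares ran from 15.96% to 25.3% for bta-miR-200a and from 3.54% to 7.55% for bta-miR-200b. In FC the summed share of bta-miR-141 and bta-miR-200a was 77.7%, 79.3% and 78.8% in steers 1, 2 and 3 at 20 months, with 79.9%, 79.7% and 79.4% in the 25 months libraries. It had reached 83.8%, 82.3% and 82.7% by 30 months. The 30 months values stood clear of the others in FC. In EX the summed share was 83.2%, 79.2% and 81.3%, then 78.0%, 82.1% and 79.8%, then 78.9%, 81.5% and 78.8%, and the ages overlapped. The 95% Wilson interval of a library's share was at most 1.76 percentage points wide, which covers counting error only. No test was made of this share.

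Within the family the balance of bta-miR-200c and bta-miR-200b, which differ by 1 base of their common length, differed between EX and FC at 30 months. The log2 ratio of bta-miR-200c to bta-miR-200b counts was -0.17, -0.22 and -0.27 in FC and 0.41, 1.39 and 0.39 in EX at 30 months. At 20 months it was -0.05, -0.16 and -0.28 in FC and 0.20, 0.16 and 0.29 in EX, and at 25 months -0.14, 0.00 and -0.20 in FC and 0.09, -0.35 and -0.06 in EX. EX values were above those of FC in all steers at 20 and 30 months but not at 25 months. The ratio of 1.39 belonged to steer 2, whose EX library of 30 months held 548 counts of bta-miR-200b.

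**Figure D4:**
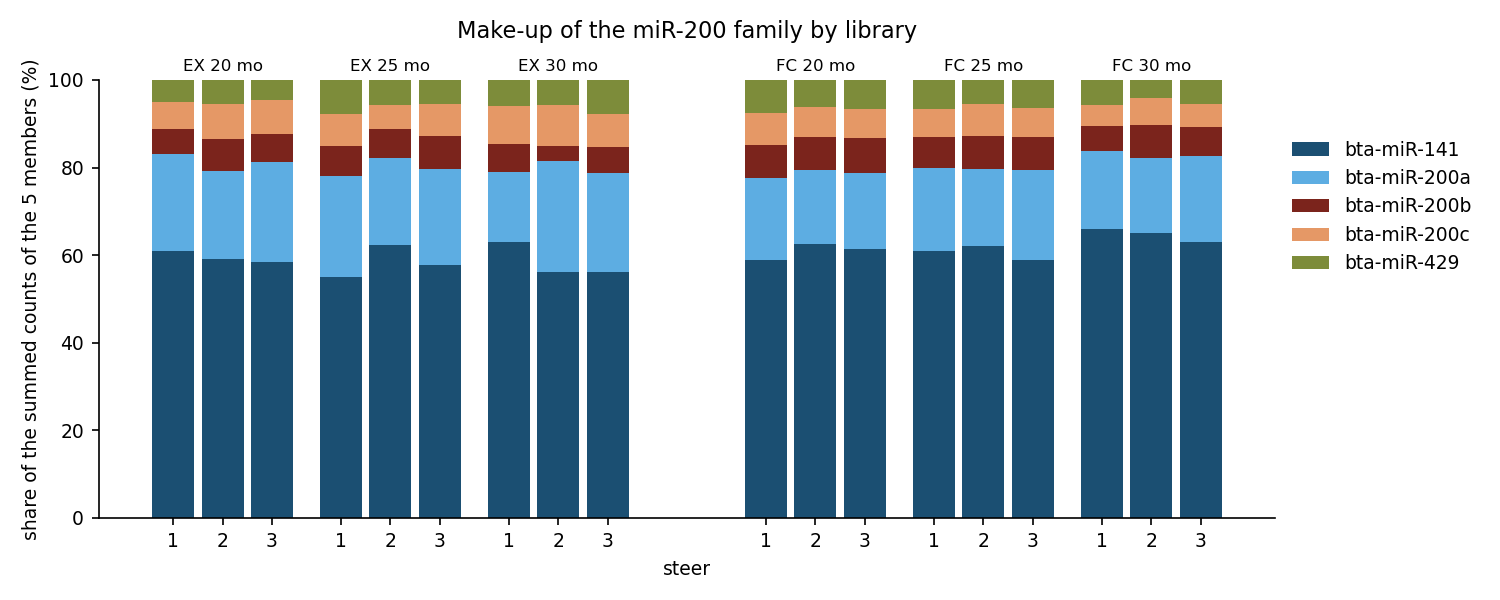
Share of each member in the summed counts of the family (%) in each of the 18 libraries, by fraction, age and steer. The blue parts (bta-miR-141 and bta-miR-200a) filled 78.0% to 83.2% of every EX bar and 77.7% to 83.8% of every FC bar.

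The members moved together over the libraries. Pearson's r between log2 TMM-normalized levels of member pairs ran from 0.91 to 0.99 in FC and from 0.48 to 0.90 in EX, over 9 libraries each that share steers and ages, and is given as a description. The lowest r, in EX, was that of bta-miR-200a and bta-miR-200b, neighbours at 1 locus. Among the 325 other miRNAs measured in both fractions, those nearest to the mean of the family were bta-miR-192 (r = 0.94 in EX and 0.97 in FC), bta-miR-199c (0.93 and 0.93), bta-miR-199a-3p (0.91 and 0.87), bta-miR-152 (0.91 and 0.83) and bta-miR-7 (0.81 and 0.88). The median r of the 325 was -0.30 in EX and -0.15 in FC. bta-miR-192, an abundant miRNA of liver, kidney and gut, had FC levels of 54073 ± 6828, 60264 ± 26098 and 109179 ± 15709 CPM (SD, n = 3) at 20, 25 and 30 months. bta-miR-152 was the only one of these 5 to be called from 25 to 30 months, with log2 fold changes of 1.10 in EX and 1.21 in FC (edgeR, FDR = 0.0413 and 0.0261). Of all miRNAs, edgeR called 14.2% in EX in either direction and 5.59% higher in FC. These 5 were picked by correlation over the same libraries, so their changes with age are not independent of the family's.

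A list of 10 other miRNAs known from epithelia gave calls in both directions. The 10 listed were bta-miR-205, bta-miR-31, bta-miR-182, bta-miR-183, bta-miR-96, bta-miR-375, bta-miR-34b, bta-miR-34c, bta-miR-449a and a candidate miRNA that the study matched to miR-203a. Of these, 7 passed the filter in EX and 8 in FC. From 25 to 30 months edgeR called 1 higher and 1 lower in EX, and 2 higher and 1 lower in FC. Among all miRNAs edgeR called 14.2% in either direction and 10.4% lower in EX, and 5.59% higher and 10.1% lower in FC. From 20 to 30 months edgeR called 1 higher in EX, against 3.48% of all miRNAs, and none in FC. At an unadjusted p under 0.05, 3 were higher and 1 lower in FC, against 11.7% and 17.3% of all. DESeq2 called 1 lower there, bta-miR-31, against 9.50% of all. The median log2 fold change of the list from 25 to 30 months was 0.68 in EX, beside 0.65 for the family, and -0.36 in FC, beside 0.83; the difference between the lists was not tested. bta-miR-375, a miRNA of endocrine and secretory cells, rose in EX from 1134 ± 374 to 4638 ± 838 CPM (SD, n = 3, log2 fold change 1.60 ± 0.21, edgeR, FDR = 0.00295). In FC its log2 fold change was 0.78 ± 0.23 (edgeR, FDR = 0.0489), under the fold threshold. bta-miR-31, of squamous and other epithelia, fell in FC from 296 ± 118 to 67.3 ± 30.5 CPM, a log2 fold change of -2.30 ± 0.52 (edgeR, FDR = 0.0254). It fell in EX as well, by -2.18 ± 0.53 (edgeR, FDR = 0.0299). bta-miR-182 and bta-miR-183 were called higher in FC and were at 0 counts in EX of steer 2 at 30 months. Plasma RNA holds no cells, so the epithelial label of the family was not checked against a tissue.

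Markers of the other likely sources were present in all libraries. The red cell miRNAs bta-miR-451, bta-miR-144 and bta-miR-486 summed to 25390.1 to 92244 CPM in EX and to 10720.2 to 46802 CPM in FC, and from 25 to 30 months edgeR called 1 of 3, bta-miR-451, lower in EX and 0 of 3 in FC (1 of 3 lower at an unadjusted p under 0.05, against 22.9% of all). DESeq2 called bta-miR-451 and bta-miR-144 lower in EX and bta-miR-451 in FC. Of all miRNAs, edgeR called 10.4% lower in EX, and DESeq2 called 17.7% lower in EX and 14.8% in FC. The platelet and endothelial bta-miR-126-3p and bta-miR-126-5p summed in EX to between 6144 and 13210 CPM (20 months) and between 18148 and 30970 CPM (30 months), with ranges of 6100.1 to 10909 and 10301.7 to 22156 CPM in FC. At 25 months the EX range, 11346 to 24181 CPM, and the FC range, 5657 to 27751 CPM, overlapped those of 30 months. edgeR called bta-miR-126-3p higher from 20 to 30 months in EX, where 3.48% of all miRNAs were called higher. Its log2 fold changes from 25 to 30 months were 0.22 in EX and -0.19 in FC, not called. The hepatocyte miRNA bta-miR-122 ranged from 12218 to 108600 CPM in EX and from 18934 to 121516 CPM in FC, and was not called between ages by edgeR. DESeq2 called it higher in EX from 25 to 30 months, where it called 6.96% of all miRNAs higher. Their part in the members' levels was not tested.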

How the data were processed

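Small RNA of EX and FC plasma fractions was sequenced by the authors (51 bp single-end, per the study's methods), trimmed with cutadapt 5.0 and Trimmomatic 0.39, checked with FastQC 0.12.1 and counted with miRDeep2 against miRBase and a cattle genome built on ARS-UCD 1.2. The deposited table of estimated counts gives reads per miRNA, with shared reads divided between miRNAs; the deposited CPM table is a normalized signal, counts per 1000000 miRNA counts (CPM) by the authors. In 4 FC libraries some rows of the 2 tables disagree, and counts were recomputed there from CPM; no member row was affected. Counts were rounded.

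All 18 libraries were grouped by fraction, age and steer. edgeR 4.0.16 (TMM, quasi-likelihood test, R 4.3.3) was fitted per fraction over 9 libraries with a steer block, as the study names plasma samples by age and individual number and pairs them by animal, and over 18 libraries with a plasma-sample block for EX against FC and for the difference between their changes. The filter was CPM above 5 in at least 3 libraries; a call needed FDR under 0.05 and an absolute log2 fold change above 1, or FDR alone for the difference. The mean correlation of same-steer deviations was 0.0254 in EX and 0.134 in FC. P-values measure the spread left after the block is removed, over 3 steers, and were adjusted by Benjamini-Hochberg. DESeq2 1.42.0 and other settings were alternatives. The fits were tested on simulated data. Named miRNAs were the 5 members, the 5 nearest patterns by correlation and fixed lists; members and lists were chosen with earlier results of these data known. Figures used matplotlib 3.10.9.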

Additional observations from a re-analysis of the deposited data

How the results depend on the processing

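In FC, from 20 to 30 months, 2 members were called. Counts as deposited gave 0, and leaving out each steer in turn gave 0 to 0, while the log2 fold change of bta-miR-141 went from 1.38 to 1.34 and to 1.26 to 1.40. The likelihood ratio test and DESeq2 each called 3, where they called 53 and 50 of the 358 miRNAs in either direction. From 25 to 30 months 1 member was called in FC; counts as deposited gave 0, only the libraries of the 2 ages gave 0, leaving out each steer gave 0 to 0, and leaving out the 25 months library of steer 3, an alternative chosen after seeing the data, gave 0. The likelihood ratio test and DESeq2 kept the call of bta-miR-141 from 25 months, where they called 79 and 80 of the 358 miRNAs in either direction. The FC log2 fold changes of all 5 members stayed positive in each of these settings. In EX, from 25 to 30 months, no member was called. DESeq2 gave 1, RLE normalization 1, library totals only 2, and the paired design without its block (no replicate block) 1. Over all 345 miRNAs the main fit called 49 and these settings 85, 45, 42 and 66, in either direction. From 20 to 30 months in EX DESeq2 gave 2 instead of 0. For the difference between EX and FC in the change from 25 to 30 months, a filter of CPM above 1 gave 1 instead of 0, bta-miR-141. The fit without the steer block changed no other member call. The causes were not tested.

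Among the log2 fold changes of single members from 20 or 25 to 30 months and between EX and FC at 30 months, the direction turned in these cases. In EX from 25 to 30 months, bta-miR-200b (0.18) ran from -0.12 to 0.35 with each steer left out and was at -0.05 without the 25 months library of steer 3. The members' median in that comparison (0.65) kept its sign but ran from 0.35 to 1.08 with each steer left out. For EX against FC at 30 months, library totals only gave 0.016 for bta-miR-200a and 0.17 for bta-miR-429; with each steer left out bta-miR-200c ran from -0.065 to 0.12 and bta-miR-429 from -0.47 to 0.049. The members' median changed sign from 0.24 to -0.047 in FC from 20 to 25 months without steer 1, from 0.072 to -0.046 in EX from 20 to 25 months with library totals only, and from -0.25 to 0.016 in EX against FC at 30 months with library totals only; in EX against FC at 20 months it was -0.039 and became positive, by 0.0048 to 0.083, in 6 settings. Calls over all miRNAs varied as well: from 25 to 30 months 49 in EX became 85 with DESeq2, 90 with the likelihood ratio test and 0 to 18 with a steer left out, and 56 in FC became 10 with counts as deposited, 30 with the libraries of 2 ages and 1 to 54 with a steer left out. From 20 to 30 months 46 in EX became 78, 83 and 0 to 12 in the first 3 settings, and 25 in FC became 50, 53 and 1 to 10, with 2 from counts as deposited and 52 with no filter.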
